A study of Mus musculus with 9 samples.

Results

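The serine/arginine-rich splicing factor genes were followed through a short exposure of mouse embryonic stem cells to inhibitors of glycogen synthase kinase 3 (GSK3). The 10 members, Srsf1 to Srsf7 and Srsf9 to Srsf11, were taken as a gene family, with no threshold on a measured value but with earlier results of these data known, so their counts beside the share of all genes are descriptions. Each has a single row among the 52264 rows of the count table. All 10 passed the filter on low counts, as did 15366 rows in all. The 3 treatment groups had 3 libraries each, from cells labelled beta-catenin-/-, a genotype that the untreated controls share. Before the experiment the cells had been grown on feeder-treated dishes with 3 µM CHIR-99021, 1 µM PD03 and 40 ng/ml LIF, so every group had met CHIR-99021 during expansion. After a night in N2B27 medium they were left untreated as control or received BRD0705 (a GSK3α-selective inhibitor) or CHIR (CHIR-99021, an inhibitor of GSK3α and GSK3β) for 30 min, with the dose of each not given in the labels. The labels do not say whether the libraries of a group came from separate cultures, so p-values measure the spread between these libraries, which may be technical.

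SR proteins bind exonic enhancers in pre-mRNA through RNA recognition motifs and recruit the U1 and U2 snRNPs through a domain rich in arginine-serine dipeptides. That domain is phosphorylated by the SRPK kinases in the cytoplasm, which lets the importin Tnpo3 carry the proteins into the nucleus, and by the CLK kinases in the nucleus. SR genes also regulate themselves: they carry conserved "poison" exons whose inclusion sends the transcript to nonsense-mediated decay. In the GENCODE vM39 annotation all 10 members had at least 1 transcript annotated as a decay target, as did 54.5% of 21770 protein-coding genes. The members had 226 such transcripts of 397, and all protein-coding genes together 89109 of 305469. The median was 24 per member against 1 per protein-coding gene. Counts per gene do not separate these isoforms, so no value below can be divided between productive and poison-exon transcripts.

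Total counts per library were 17359422 to 20773337, and values are given as CPM, the count scaled to a common library total with TMM factors. Ctnnb1, the gene of the genotype label, was at 344 ± 21.4 CPM and the drug targets Gsk3a and Gsk3b at 215 ± 20.8 and 81.8 ± 5.14 CPM (SD, n = 9 each), and none of them passed the test in any comparison. The level of Ctnnb1, at percentile 96.9 of the tested genes, goes against an absence of its transcript. A count per gene cannot show whether part of the gene is deleted, so it does not check the genotype label. The stem cell label was matched by its markers: all 10 were expressed, among them Pou5f1 with a mean of 945 CPM in control, and their summed level was 4800 to 5116 CPM over the 9 libraries. Fibroblast markers of the feeder cells were also present, none of the 10 at 0, with a summed level of 2114 to 2556 CPM in control, 2690 to 2775 CPM with BRD0705 and 2415 to 2876 CPM with CHIR. All 10 had a log2 fold change above 0 under each inhibitor, and the part of these markers in the results was not tested beyond the covariate fits given below. Of all the marker genes, Col1a1 (feeder), Esrrb and Klf4 (stem cell) rose and Sox1 (neural) fell under CHIR by edgeR, and Col1a1 rose under BRD0705. In bulk RNA fewer cells of a type and less RNA per cell cannot be told apart. Primitive endoderm markers summed to 9.77 to 14.6 CPM and neural markers to 104 to 127 CPM, with Neurog2 at 0 throughout.

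On GRCm38.p6, the mm10 assembly, the members that passed a test below lie as follows: Srsf3 on chr17:29032660-29043372, Srsf7 on chr17:80200080-80207369, Srsf4 on chr4:131873530-131901725, Srsf10 on chr4:135855752-135869908, Srsf6 on chr2:162931508-162937121, Srsf5 on chr12:80945495-80950507 and Srsf9 on chr5:115327163-115333843, by RefSeq.

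As a family the members were abundant. Their summed level was 2286, 2461 and 2346 CPM in control replicates 1 to 3, 2209.7, 2264 and 2376 CPM with BRD0705, and 2532, 2375 and 2399 CPM with CHIR. These ranges overlapped between all groups, but those of BRD0705 and CHIR only between 2375.43 and 2376.22 CPM. Srsf2 alone made up 25.9% (control replicate 3) to 31.2% (BRD0705 replicate 3) of the sum. So the total with Srsf2 in it did not fully separate the treatments, and the sum of the other members was not tested. Per kilobase of annotated exon, the scale on which genes can be compared, Srsf2 led with a level of 181 ± 14.4 CPM per kb, followed by Srsf6 at 58.4 ± 3.96 and Srsf1 at 48.8 ± 4.21 CPM per kb (SD, n = 9 each). Srsf5 stood at 36.5 ± 3.44, Srsf11 at 29.98 ± 2.23, Srsf3 at 22.9 ± 1.82 and Srsf7 at 21.1 ± 1.49 CPM per kb (SD, n = 9 each). Srsf10 at 14.8 ± 1.47, Srsf4 at 12.4 ± 0.890 and Srsf9 at 3.97 ± 0.513 CPM per kb were lowest (SD, n = 9 each). Neighbours whose library values overlapped were Srsf6 with Srsf1, Srsf5 with Srsf11, Srsf3 with Srsf7, and Srsf10 with Srsf4. The lengths come from all exons annotated for a gene, including rare ones, so the order depends on that annotation. Srsf12, a relative outside the members, was at 1.19 ± 0.285 CPM (SD, n = 9), and the pseudogene row Srsf3-ps held 1 to 5 counts per library.

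**Figure D1:**
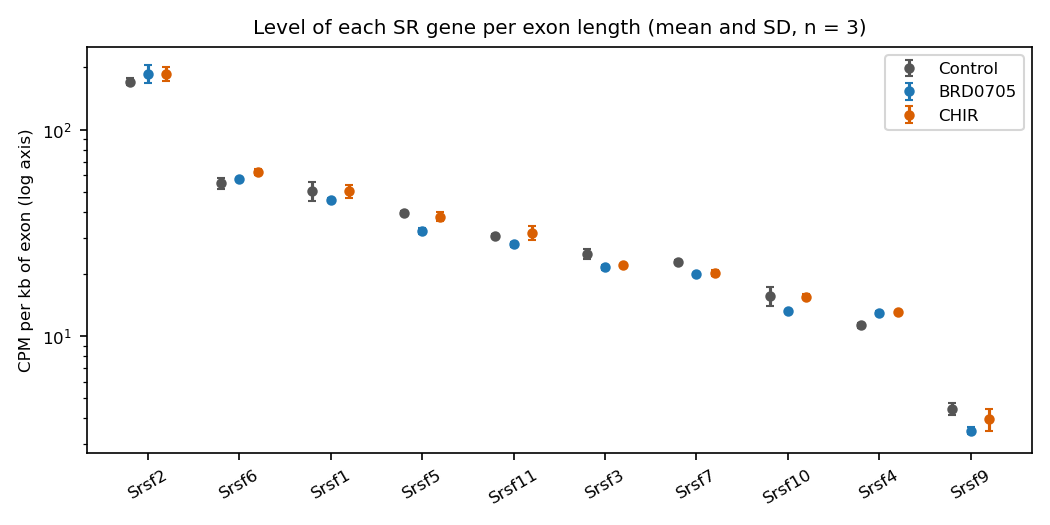
Level of each SR gene in CPM per kilobase of annotated exon (log axis), as the mean and SD of 3 libraries for control, BRD0705 and CHIR. Srsf2 lies above and Srsf9 below all other members in every group, with 181 and 3.97 CPM per kb over the 9 libraries.

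The effect of inhibiting both GSK3 enzymes was read from CHIR against control. The family split: Srsf4 and Srsf6 rose, by 15.8% and 13.9%, while Srsf3 and Srsf7 fell by 12.1% and 11.6%. The other 6 members did not pass. By the quasi-likelihood test of edgeR, with p-values adjusted over every tested gene, 4 of 10 members passed an adjusted p of 0.05, against 6.30% of the 15366 tested genes. In each direction there were 2 members, where 2.52% of tested genes were higher and 3.78% lower. An unadjusted p under 0.05 was found for 5 members and for 20.5% of tested genes. By mean level the members lay between percentile 69.2 (Srsf9) and percentile 98.8 (Srsf2) of the tested genes. The shares of tested genes given here and below cover all levels and were not matched by level to the members or lists. The median log2 fold change of the members was -0.01, the same as that of all tested genes, -0.01.

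Srsf4, the member with one of the longest arginine-serine domains, was at 111, 112 and 106 CPM in control replicates 1 to 3, and at 129, 125 and 127 CPM with CHIR. Every CHIR library was above every control library, a log2 fold change of 0.21 ± 0.05 (SE; adjusted p by edgeR 0.0172). Srsf6, a close relative of Srsf4 with paired RNA recognition motifs, was at 349, 352 and 312 CPM in control and at 387, 371 and 396 CPM with CHIR. Here too the groups did not overlap, although control replicate 3 lay well below the other controls (log2 fold change 0.19 ± 0.05 SE, adjusted p by edgeR 0.0459).

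Srsf3, the smallest SR protein, which couples splicing to mRNA export and is needed for pluripotent cells, was at 193, 211 and 213 CPM in control and at 178, 182 and 182 CPM with CHIR. The CHIR libraries lay close together, all below the lowest control (log2 fold change -0.19 ± 0.05 SE, adjusted p by edgeR 0.0431). Srsf7, which resembles Srsf3 but carries a zinc knuckle, was at 138, 139.7 and 144 CPM in control and at 128, 120.3 and 124 CPM with CHIR. Again no CHIR library reached the controls (log2 fold change -0.18 ± 0.05 SE, adjusted p by edgeR 0.0425). These 4 were the members whose CPM values did not overlap between CHIR and control, which held for 25.1% of all tested genes.

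The remaining members under CHIR were spread around the controls. Srsf9 had a log2 fold change of -0.17 ± 0.08 and Srsf2 of 0.12 ± 0.07 (SE), with adjusted p values by edgeR of 0.220 and 0.332. Srsf1, the founding member of the family and a splicing oncoprotein, had a fold change of -0.01 on the log2 scale, with a 95% interval of -0.15 to 0.14. Srsf10, which represses splicing when dephosphorylated, was at -0.01 with an interval of -0.14 to 0.13. Both Srsf1 and Srsf10 changed sign when DESeq2-type size factors replaced TMM. Srsf5 and Srsf11 stood at -0.06 and 0.05 on the log2 scale (adjusted p by edgeR 0.553 and 0.678).

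The adjusted p of the 4 calls by edgeR ran from 0.0172 to 0.0459. Leaving out 1 library took the count of 4 to 0 without CHIR replicate 1 or control replicate 3, to 1 without CHIR replicate 2, CHIR replicate 3 or BRD0705 replicate 2, and to 2 without BRD0705 replicate 1 or control replicate 2. With the feeder marker level as a covariate it was 0. The log2 fold changes in that fit were 0.21 for Srsf4, 0.21 for Srsf6, -0.18 for Srsf7 and -0.14 for Srsf3. Without the covariate they were 0.21, 0.19, -0.18 and -0.19 in that order.

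**Figure D2:**
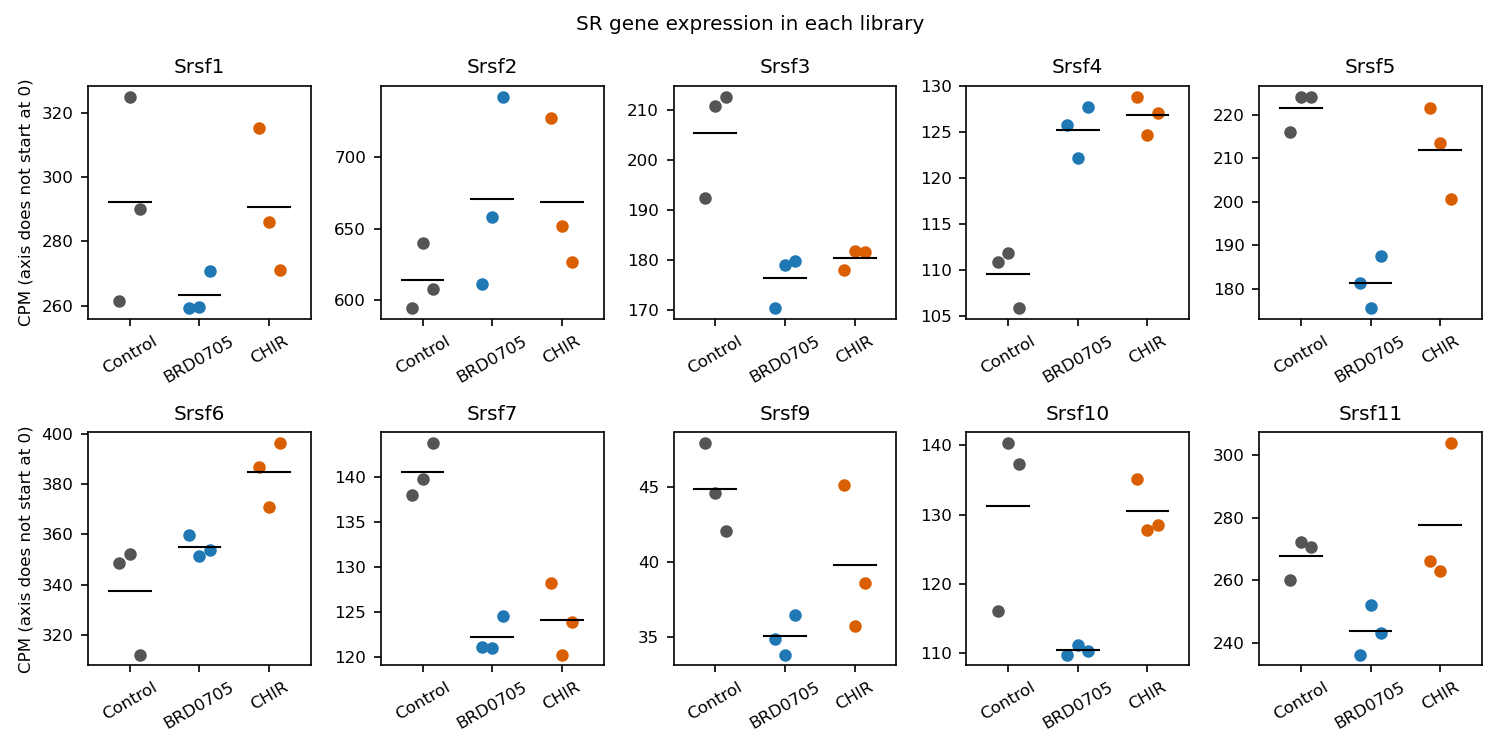
CPM of each SR gene in the 9 libraries, with points for libraries and a black line for the group mean; each panel has its own axis, which does not start at 0. For Srsf3, Srsf4 and Srsf7 the libraries of both inhibitors lie together and apart from control, while Srsf5, Srsf9, Srsf10 and Srsf11 are low with BRD0705.

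The start sites of the 4 genes that changed under CHIR are shown so that the promoters of the 2 that fell and the 2 that rose can be compared. The sequences are the 150 bases before the start site in the RefSeq promoter table (GRCm38.p6, the assembly called mm10), in the direction of transcription. Capitals mark a match, on either strand, to one of 7 motifs, namely the TATA box motif TATAA, the NF-Y box motif CCAAT, the Sp1 GC box motif GGGCGG, the ETS factor motif CCGGAAGT, the E-box motif CACGTG, the CRE motif TGACGTCA and the TCF factor motif CTTTGAT, whose matches may overlap. Srsf3 is on chr17:29032510-29032659 (plus strand), Srsf7 on chr17:80207306-80207455 (minus strand), Srsf4 on chr4:131873487-131873636 (plus strand, the first of its 3 windows) and Srsf6 on chr2:162931358-162931507 (plus strand).
Srsf3: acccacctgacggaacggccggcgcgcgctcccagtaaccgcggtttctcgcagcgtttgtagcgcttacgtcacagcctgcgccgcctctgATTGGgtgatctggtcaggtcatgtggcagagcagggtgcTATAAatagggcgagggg
Srsf7: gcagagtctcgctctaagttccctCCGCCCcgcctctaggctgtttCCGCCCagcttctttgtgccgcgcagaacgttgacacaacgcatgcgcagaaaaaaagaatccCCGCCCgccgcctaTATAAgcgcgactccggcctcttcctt
Srsf4: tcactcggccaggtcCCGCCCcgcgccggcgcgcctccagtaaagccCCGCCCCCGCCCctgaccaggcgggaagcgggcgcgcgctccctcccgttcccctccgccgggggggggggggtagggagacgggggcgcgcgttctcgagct
Srsf6: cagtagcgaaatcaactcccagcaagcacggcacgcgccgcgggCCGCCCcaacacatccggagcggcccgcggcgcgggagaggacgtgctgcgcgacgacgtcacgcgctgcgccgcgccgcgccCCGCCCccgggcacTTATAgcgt

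All 10 members matched the promoter table, with 13 windows in all. The Srsf4 windows at chr4:131873487-131873636 and chr4:131873489-131873638 overlap almost fully, so their matches, among them the ETS motif, are the same sites counted again. In the 250 bases before the start, TATAA on either strand was in 4 of the 13 windows, those of Srsf2, Srsf3, Srsf6 and Srsf7, against 22.8% of 32851 promoter windows. Counting either strand, it was present on both sides of the split, in Srsf3 and Srsf7, which fell with CHIR, and in Srsf6, which rose. The Srsf6 match reads TTATA in the direction of transcription, so it lies on the opposite strand. In the direction of transcription, TATAA was in Srsf3 and Srsf7 but not in Srsf4 or Srsf6. The GC box was in 12 of 13 member windows, all but that of Srsf3, against 32.7% of all windows, and CCAAT in 3 against 33.8%. The ETS motif was in 4 windows, of Srsf4, Srsf5 and Srsf11, against 2.88%. The E-box, CRE and TCF letters were in none of the 13 windows and in 6.02%, 1.55% and 3.21% of all windows. Member windows held 16 to 37 CpG dinucleotides, where the median over all windows was 6. A match is a description of the letters and not a binding site.

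BRD0705 against control addressed the inhibition of GSK3α. The direction was mostly downward: Srsf5, Srsf9 and Srsf3 fell, by 18.1%, 21.9% and 14.1%, and no member rose past the threshold. By the same edgeR test, 3 of 10 members passed, against 1.22% of tested genes. All 3 were lower, as were 0.534% of tested genes, while 0.690% were higher. In 7 of the 10 the log2 fold change was below 0, with a median of -0.18 over the members and 0.00 over all tested genes. At an unadjusted p under 0.05 there were 8 members, and 15.9% of tested genes.

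Srsf5, an early response gene in growth-stimulated cells, was at 216, 224 and 224 CPM in control and at 181, 176 and 187 CPM with BRD0705. All BRD0705 libraries lay below all controls, and the log2 fold change was -0.29 ± 0.05 (SE; adjusted p by edgeR 0.0118). Srsf9, the least abundant member per length, was at 47.9, 44.6 and 42.03 CPM in control and at 34.8, 33.8 and 36.4 CPM with BRD0705. Its log2 fold change of -0.36 ± 0.08 was the furthest from 0 of the members (SE; adjusted p by edgeR 0.0360). In GENCODE vM39 the exons of Srsf9 share 4654 bases with Gatc on the opposite strand. Shared exon bases on the opposite strand were annotated for all members but Srsf6 and Srsf7, and the partners of Srsf2 were Mettl23 and Mfsd11, at 11.9 and 10.8 CPM. Gatc was at 20.8 ± 2.80 CPM (SD, n = 9) with a log2 fold change of -0.06 (adjusted p by edgeR 0.875), and since the use of strand in counting is not given, the value of Srsf9 is uncertain. Srsf3 was at 170.5, 179 and 179.8 CPM with BRD0705, below its controls given above (log2 fold change -0.22 ± 0.05 SE, adjusted p by edgeR 0.0499).

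Beyond these, 3 members lay just outside the threshold. Srsf7 was at 121, 121 and 125 CPM with BRD0705 (log2 fold change -0.20 ± 0.05 SE, adjusted p by edgeR 0.0576), which put every library below its controls. Srsf4 was at 126, 122 and 128 CPM, above every control, with a log2 fold change of 0.19 ± 0.05 (SE; adjusted p by edgeR 0.0666). Srsf10 was at 109.8, 111 and 110.3 CPM, where the controls were at 116, 140.3 and 137 CPM (log2 fold change -0.25 ± 0.06 SE, adjusted p by edgeR 0.0615). The BRD0705 libraries of Srsf10 were nearly level, and control replicate 1 stood apart from the other controls and close to them.

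For Srsf11, an SR protein found with the splicing factor U2AF, BRD0705 libraries at 236, 252 and 243 CPM were below controls at 260.1, 272 and 271 CPM (log2 fold change -0.13 ± 0.06 SE, adjusted p by edgeR 0.264), and with the feeder covariate this fold change was 0.01. Srsf1 was at 259, 259.5 and 271 CPM with BRD0705 and at 261, 325 and 290.0 CPM in control, which overlap (log2 fold change -0.15 ± 0.07 SE, adjusted p by edgeR 0.304). Srsf2 and Srsf6 had positive fold changes of 0.13 ± 0.07 and 0.07 ± 0.05 in log2 units (SE; adjusted p by edgeR 0.387 and 0.562). In all, 7 of 10 members did not overlap between BRD0705 and control, 6 lower and 1 higher, against 20.2% of tested genes.

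Control replicate 1 and the BRD0705 libraries shared a further property. Across genes, the Spearman correlation between a library's deviation from the mean and transcript GC content was 0.187 in control replicate 1 and 0.0794 to 0.279 with BRD0705, but -0.287 and -0.161 in the other controls and -0.121 to -0.0641 with CHIR. The members' longest transcripts were poor in GC, with a median of 41.7% against 49.7% for tested genes. With each library's trend over GC and length removed, 2 members passed under BRD0705 by edgeR, Srsf9, lower, and Srsf4, higher, while Srsf3 and Srsf5 did not. The 4 members called under CHIR and the 2 called between inhibitors passed with that correction too. The count of 3 fell to 0 without BRD0705 replicate 1 or 2 or without control replicate 2 or 3, and with the feeder covariate, under which no tested gene passed. In that fit the log2 fold changes of Srsf5 and Srsf9 were further from 0, at -0.34 and -0.44, and that of Srsf3 was -0.15. The covariate, the mean log2 CPM of the feeder markers, was 5.91 to 6.15 in control and 6.22 to 6.32 with BRD0705. Since these ranges do not overlap, the covariate and the BRD0705 treatment cannot be fully told apart. With DESeq2 the count of members was 6, since Srsf7 and Srsf10, lower, and Srsf4, higher, passed as well. Over all genes the calls under BRD0705 also went up, from 188 with edgeR to 471 with DESeq2.

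**Figure D3:**
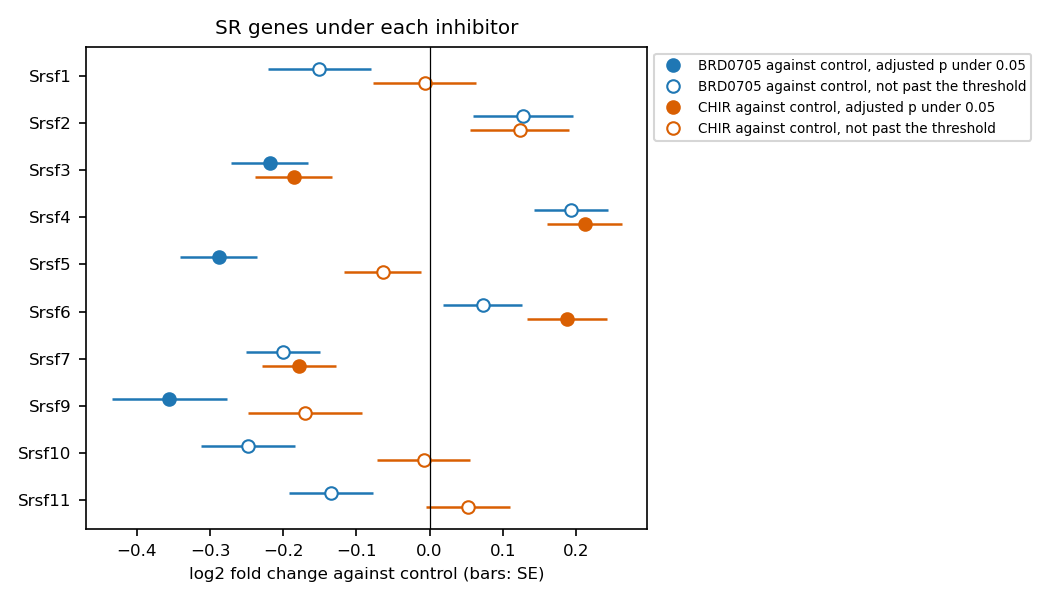
Log2 fold change of each SR gene against control for BRD0705 (blue) and CHIR (orange), with bars of 1 SE; filled points passed an adjusted p of 0.05. Srsf3 and Srsf7 lie left of 0 and Srsf4 right of 0 for both inhibitors, while Srsf5 and Srsf10 are left of 0 for BRD0705 and nearer to 0 for CHIR.

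The inhibitors were then compared with each other, which does not use the control libraries as a reference. Srsf5 and Srsf10 were lower with BRD0705 than with CHIR. By the same edgeR test, 2 of 10 members passed, against 7.77% of tested genes. Both were lower with BRD0705, as were 2.97% of tested genes, and 4.80% were higher. An unadjusted p under 0.05 was found for 5 members and for 22.5% of tested genes. The members' median difference was -0.13 on the log2 scale, against 0.00 over all tested genes.

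Srsf5 was at 222, 214 and 201 CPM with CHIR, all above the BRD0705 libraries, whose highest was 187 CPM. The difference, BRD0705 minus CHIR, was -0.22 ± 0.05 in log2 units (SE; adjusted p by edgeR 0.0140), or 14.4% less. Srsf10 was at 135, 128 and 129 CPM with CHIR, where the highest BRD0705 library was at 111 CPM. Its difference was -0.24 ± 0.06 in log2 units (SE; adjusted p by edgeR 0.0285). Srsf11 missed the threshold, at -0.19 ± 0.06 (SE; adjusted p by edgeR 0.0555), with CHIR libraries at 266, 263 and 304 CPM. Srsf1 and Srsf6 also did not overlap between the inhibitors, both lower with BRD0705, so 5 of 10 members did not overlap, against 26.7% of tested genes.

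For 3 of the 4 members called under CHIR the inhibitors were close. The difference was -0.03 on the log2 scale for Srsf3, with a 95% interval of -0.14 to 0.08, and -0.02 for Srsf4, from -0.13 to 0.09. For Srsf7 it was -0.02, from -0.13 to 0.08. The intervals of Srsf3, Srsf4 and Srsf7 reach no further from 0 than -0.14, which does not show that the inhibitors act alike. Srsf6 differed by -0.12, with an interval of -0.23 to -0.0017 (adjusted p by edgeR 0.214). Both inhibitors were set against the same controls, so their changes from control are not independent of each other. The count of 2 fell to 1 without BRD0705 replicate 1 or 3 or CHIR replicate 3, and to 0 without BRD0705 replicate 2 or CHIR replicate 1 or 2.

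Ratios between members within a library do not depend on its scaling. These were chosen after the values were seen and are given as a description. The log2 ratio of Srsf4 to Srsf3 counts was -0.80, -0.91 and -1.01 in control, -0.44, -0.55 and -0.49 with BRD0705, and -0.47, -0.54 and -0.52 with CHIR. The control libraries were the 3 lowest. This follows from the choice, since Srsf4 was above and Srsf3 below every control library under both inhibitors. The log2 ratio of Srsf6 to Srsf7 counts was 1.34, 1.33 and 1.12 in control. It was 1.57, 1.54 and 1.51 with BRD0705 and 1.59, 1.62 and 1.68 with CHIR. The controls were again lowest, which for CHIR follows from the choice in the same way. Srsf2 made up 26.0% of the family sum in control on average, 29.3% with BRD0705 and 27.4% with CHIR, and the CHIR range of 26.1 to 28.7% overlapped that of BRD0705, 27.7 to 31.2%. The control share, 25.9 to 26.0%, lay below both.

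**Figure D4:**
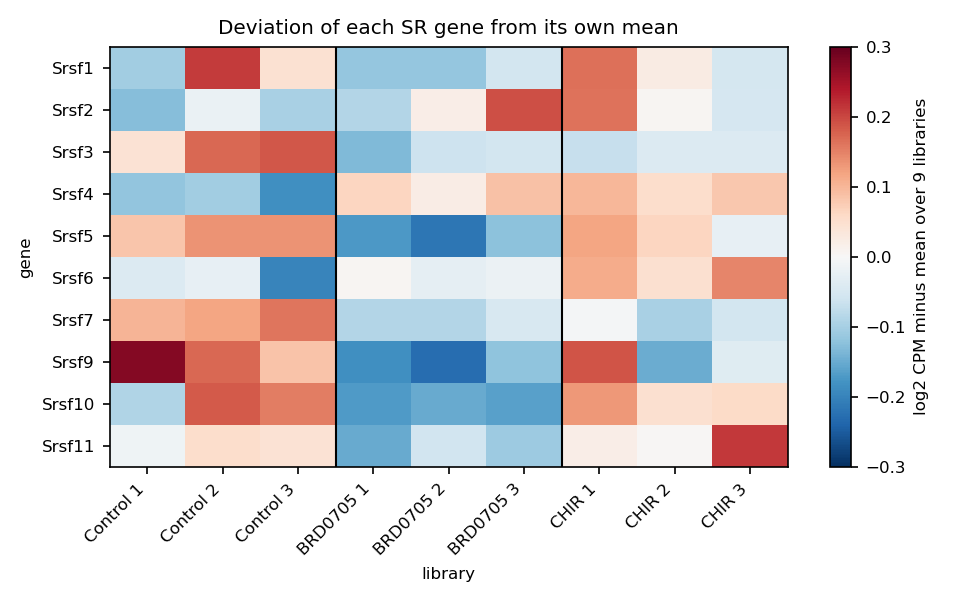
Deviation of each SR gene's log2 CPM from its own mean over the 9 libraries, with genes in rows, libraries in columns and vertical lines between groups. Srsf4 is below its mean in the 3 control libraries and above it in the other 6, Srsf3 and Srsf7 show the reverse, and Srsf10 is low in all BRD0705 libraries and in control replicate 1.

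The kinases that phosphorylate SR proteins were read next, from a list of 14 genes with the importin and the catalytic subunits of protein phosphatase 1, of which 13 were tested. Under CHIR, Clk2 and Clk3 rose and Clk1 fell, and the other 10 did not pass by edgeR, so 3 of 13 passed against 6.30% of tested genes. Clk1 went from 57.3 ± 2.61 CPM in control to 46.2 ± 2.99 CPM with CHIR (SD, n = 3 each), a log2 change of -0.31 ± 0.06 (SE; adjusted p by edgeR 0.00724). Clk3 went from 36.05 ± 1.08 to 45.4 ± 2.53 CPM (SD, n = 3 each), a log2 change of 0.33 ± 0.06 (SE; adjusted p by edgeR 0.00311), and Clk2 from 84.6 ± 0.684 to 99.5 ± 3.73 CPM (SD, n = 3 each), a log2 change of 0.23 ± 0.06 (SE; adjusted p by edgeR 0.0236). Under BRD0705 none of the 13 passed by edgeR, with 4 at an unadjusted p under 0.05 (15.9% of tested genes) and 0 by DESeq2 or limma voom. The list's median log2 fold change was 0.05 with CHIR and -0.07 with BRD0705, against -0.01 and 0.00 over all tested genes. Clk3 and the SR importin Tnpo3 were lower with BRD0705 than with CHIR, with log2 differences of -0.23 ± 0.06 and -0.17 ± 0.05 (SE; adjusted p by edgeR 0.0280 and 0.0374). The cytoplasmic kinases Srpk1 and Srpk2 stood at 177 ± 5.98 and 42.3 ± 2.14 CPM (SD, n = 9 each) and passed in no comparison, and Srpk3 had at most 2 counts in a library. The 3 calls under CHIR became 1 without control replicate 2 and 0 with the feeder covariate, and the 2 between inhibitors became 0 without BRD0705 replicate 2 or CHIR replicate 2 and with library size only, and 1 without the other BRD0705 or CHIR libraries or control replicate 3.

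Among 26 other SR and SR-related genes, all tested, 3 rose and 1 fell under CHIR by edgeR, against 2.52% and 3.78% of tested genes, and the count was 4 with each library left out in turn. Luc7l, which binds U1 snRNP, rose by 0.32 ± 0.06 in log2 units (SE; adjusted p by edgeR 0.00300). Bclaf1 and Thrap3, paralogous SR-related proteins, rose by 0.26 ± 0.05 and 0.24 ± 0.05 (SE; adjusted p by edgeR 0.00402 and 0.00734). Srek1ip1 fell by 0.49 (SE 0.10; adjusted p by edgeR 0.00622). Under BRD0705 none passed by edgeR or limma voom (2 did by edgeR without control replicate 1, 1 without BRD0705 replicate 3). By DESeq2 3 passed, where 471 genes did in all, and 7 had an unadjusted p under 0.05, against 15.9% of tested genes. The list's medians were 0.06 with CHIR and -0.05 with BRD0705. Between inhibitors 7 of 26 passed, against 7.77% of tested genes: Scaf4 was higher with BRD0705, and Tra2a, Tra2b, Luc7l, Bclaf1, Thrap3 and Arglu1 were lower. Tra2a and Tra2b, sequence-specific activators related to the SR proteins, differed by -0.26 ± 0.07 and -0.20 ± 0.05 (SE; adjusted p by edgeR 0.0322 and 0.0194). The count of 7 fell to 4 without BRD0705 replicate 1 or CHIR replicate 2.

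The hnRNP genes, whose proteins often oppose SR proteins at exons, held 24 tested genes, of which 4 passed under CHIR, 2 under BRD0705 and 3 between inhibitors by edgeR, against 6.30%, 1.22% and 7.77% of tested genes. Hnrnpa1, an antagonist of Srsf1 in splice site choice, fell under both inhibitors by edgeR, from 918 ± 32.7 CPM in control to 777 ± 21.1 CPM with BRD0705 and to 794 ± 17.7 CPM with CHIR (± SD of 3 libraries; adjusted p by edgeR 0.0251 and 0.0154). Hnrnpr also fell with BRD0705 (log2 fold change -0.28 ± 0.07 SE, adjusted p by edgeR 0.0426). With CHIR, Hnrnpdl fell (-0.35 ± 0.06 SE), and Ptbp1, the polypyrimidine tract binding protein, and Pcbp2 rose by 0.21 ± 0.05 and 0.19 ± 0.05 (SE; adjusted p by edgeR 0.00120, 0.0236 and 0.0199). The median log2 fold change of this list was -0.10 with BRD0705 and -0.05 with CHIR. Between inhibitors Hnrnpdl was higher with BRD0705 and Hnrnpr and Syncrip lower by edgeR. The 4 calls under CHIR became 2 without CHIR replicate 2 or 3 or control replicate 3, and 1 with the feeder covariate. The 2 under BRD0705 became 0 without BRD0705 replicate 1 or 2, CHIR replicate 2 or control replicate 2 or 3, and with the feeder covariate, 1 without CHIR replicate 3, and 4 without control replicate 1.

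Of 24 U1 and U2 snRNP and U2AF genes, none passed under CHIR or between inhibitors by edgeR, with 5 and 2 at an unadjusted p under 0.05 (20.5% and 22.5% of tested genes). By DESeq2 2 and 0 passed, where 857 and 1022 genes did in all, and 0 in both by limma voom. The medians were -0.02 with CHIR and -0.08 with BRD0705. Under BRD0705 Snrpf, a core Sm protein, and Sf3b6, a U2 snRNP subunit at the branch point, fell by 0.40 (SE 0.09) and 0.29 (SE 0.06) on the log2 scale (adjusted p by edgeR 0.0351 and 0.0360), which is 2 of 24 against 1.22% of tested genes. These 2 calls became 0 without BRD0705 replicate 1 or 2, CHIR replicate 2 or control replicate 3, and with GC and length correction or the feeder covariate, 1 without control replicate 2, 4 without CHIR replicate 1 or 3 and 5 without BRD0705 replicate 3. The 0 under CHIR became 1 to 3 without any one of CHIR replicate 1, control replicates 1 and 2 and the BRD0705 libraries, and the 0 between inhibitors became 1 without BRD0705 replicate 3 or control replicate 1.

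Nonsense-mediated decay and exon junction genes were 15, all tested. Under CHIR 5 of 15 rose, against 2.52% of tested genes, and none fell by edgeR, with a median of 0.12 on the log2 scale. The endonuclease gene Smg6 went from 72.5 ± 5.31 to 94.4 ± 3.23 CPM and the adaptor gene Smg5 from 192 ± 1.16 to 234 ± 4.96 CPM (SD, n = 3 each; adjusted p by edgeR 0.00145 and 0.00254). The others were Smg9 at 0.33 ± 0.06, Smg1, the kinase of the pathway, at 0.24 ± 0.06, and its substrate, the helicase Upf1, at 0.19 ± 0.05 in log2 units (SE; adjusted p by edgeR 0.00257, 0.0196 and 0.0293). Under BRD0705 none passed by edgeR or limma voom and 2 by DESeq2, where 471 genes passed in all. At an unadjusted p under 0.05 there were 7, against 15.9% of tested genes, and the median log2 fold change was 0.01. Between inhibitors 4 were lower with BRD0705, Smg5, Smg6, Upf2 and Rbm8a, against 2.97% of tested genes. The 5 calls under CHIR became 3 without CHIR replicate 1 or 3 or control replicate 3 and with the feeder covariate, the 0 under BRD0705 became 1 without BRD0705 replicate 3 or control replicate 1, and the 4 between inhibitors became 2 without BRD0705 replicate 1 or 2 or CHIR replicate 1 and with library size only.

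**Figure D5:**
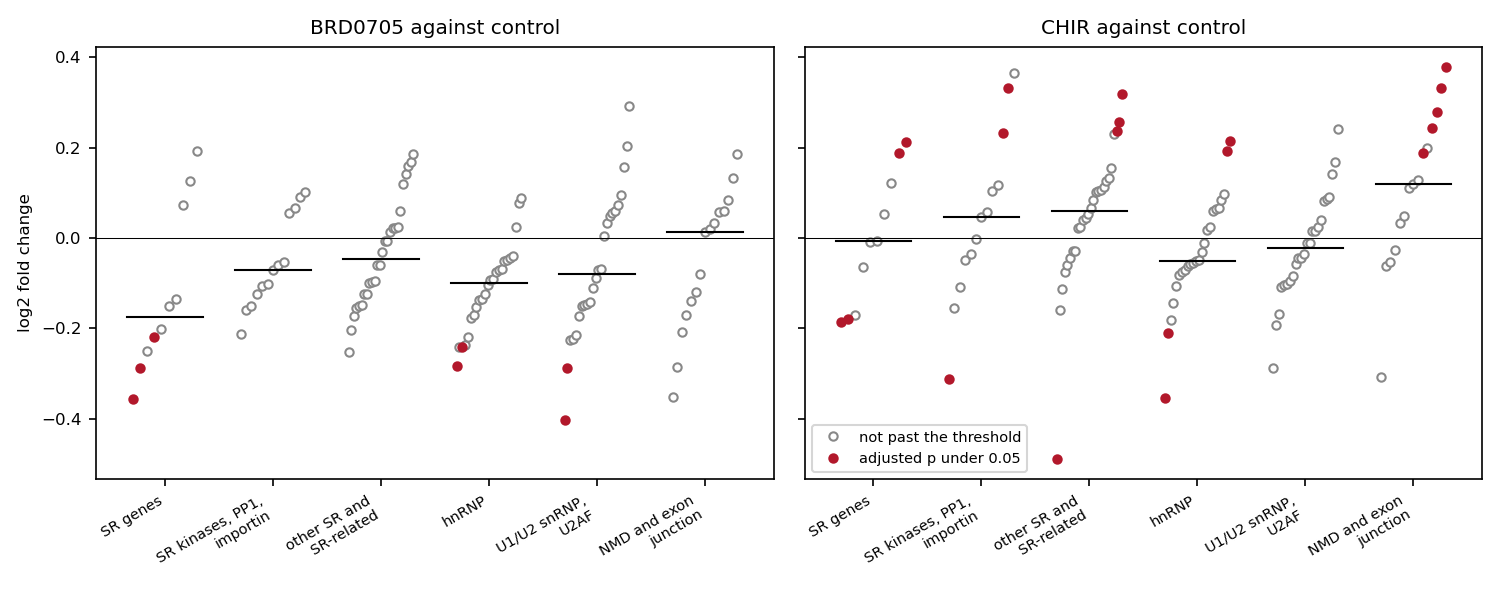
Log2 fold change of each tested gene of the SR family and of 5 related gene lists, for BRD0705 (left) and CHIR (right) against control; red points passed an adjusted p of 0.05 and black lines are list medians. Under BRD0705 the SR median is -0.18, and under CHIR 5 nonsense-mediated decay genes lie above 0 past the threshold.

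The genes whose pattern over the 9 libraries was most like the family's, by Pearson correlation with the mean of the members' centred log2 CPM, were Mtch2 (r = 0.968), H3f3a (0.967), Orc2 (0.949), Brd7 (0.949) and Selenof (0.940), of 7652 candidates with a median of 0.0780. Of the members, Srsf10 and Srsf5 followed that mean most closely, at 0.904 and 0.895, and Srsf4 ran against it at -0.289. Srsf2 and Srsf6 hardly followed it, at 0.128 and 0.130. The mean includes each member itself, which raises the members' values. Those of Mtch2 to Selenof are raised too, since these genes were picked as the highest of the 7652. Whether GC content has a part in this likeness was not tested.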

How the data were processed

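Poly(A) RNA, per the labels' molecule field, was sequenced from 9 libraries, although the labels' extract protocol names a ribosomal depletion kit. The authors deposited raw counts per gene and a normalized signal, which equals the counts divided by median-of-ratios size factors. The submitters' processing notes name RSEM, DESeq2 and mm10; how reads were assigned and the use of strand are not given in the sources used here. The counts were tested with edgeR 4.0.16 (R 4.3.3): filterByExpr with a minimum count of 10, TMM scaling, and 1 quasi-likelihood fit of the 3 group means, with Benjamini-Hochberg adjustment over 15366 genes and a threshold of 0.05. CPM values use the TMM factors. Total counts of 17359422 to 20773337 per library set the counting precision, and replicates differed beyond counting noise, by a chi-square of 3.39 to 8.01 per degree of freedom. Gene length, GC content and overlaps came from GENCODE vM39, and positions and promoters from RefSeq tables.

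The members and lists were chosen with earlier results of these data known. Named genes were the 10 members, up to 8 genes of each list that passed a test, the 5 genes most like the family among those whose log2 CPM averaged 4 or more, and Ctnnb1, Gsk3a and Gsk3b. Other names were chosen after values were seen. Alternatives were DESeq2 1.42.0, limma 3.58.1 (voom, and log2 of the normalized signal plus 1 or 0.1), other scalings and filters, GC and length correction, a feeder marker covariate, a replicate block, only the groups compared, and each library left out. The scripts were tested on simulated data.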

Additional observations from a re-analysis of the deposited data

How the results depend on the processing

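Each of the 9 changes called among the SR genes kept its sign in 22 of 22 alternatives, while their calls, at adjusted p by edgeR of 0.0118 to 0.0499, moved with many of them; the cause was not tested. Under CHIR, the 4 SR genes became 2 with DESeq2-type size factors, with normalized values plus 1 or plus 0.1, and with only the groups compared, and 0 with the feeder marker covariate, where their log2 fold changes were 0.21 (Srsf4), 0.21 (Srsf6), -0.18 (Srsf7) and -0.14 (Srsf3). Under BRD0705 the 3 became 6 with DESeq2, 1 with GC and length correction with replicate block, and 0 with the feeder covariate, with Srsf5 at -0.34, Srsf9 at -0.44 and Srsf3 at -0.15. Between inhibitors the 2 became 1 with library size only and with the feeder covariate. Over all tested genes, the 968 under CHIR became 1530 with GC and length correction, 1491 with that correction and the block, and 280 with the feeder covariate. The 188 under BRD0705 became 471 with DESeq2, 609 without a low-count filter, 117 with GC and length correction, 111 with that correction and the block, and 0 with the feeder covariate. Values of that covariate did not overlap between BRD0705 and control, so covariate and treatment cannot be fully told apart. Leaving out 1 library gave 0 to 4 SR genes under CHIR, 0 to 3 under BRD0705 and 0 to 2 between inhibitors, and 514 to 1070, 21 to 305 and 616 to 1313 tested genes. For the lists of kinases, other SR-related, hnRNP, snRNP and decay genes, settings other than leaving out a library gave 0 to 4, 3 to 5, 1 to 5, 0 to 3 and 3 to 7 calls under CHIR, 0, 0 to 3, 0 to 5, 0 to 7 and 0 to 2 under BRD0705, and 0 to 4, 6 to 8, 2 to 6, 0 to 1 and 2 to 7 between inhibitors.

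Same-numbered libraries did not deviate together: over 9 pairs the mean correlation was -0.00119 (-0.0897 to 0.0802), against 0.000622 for differently numbered ones. The labels do not state that the numbers mark a shared batch, so they were not used as pairs. With the replicate block 2 SR genes passed under CHIR, 3 under BRD0705 and 2 between inhibitors.

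None of the fold changes that reversed was called. Under CHIR, Srsf1 was at 0.00684 with DESeq2, 0.00274 with DESeq2-type size factors, 0.00998 with either log2 pseudocount, 0.0127 with GC and length correction, 0.0125 with the block added, 0.0242 with the feeder covariate and -0.0746 to 0.0862 with a library left out. Srsf10 was at 0.00539, 0.00125, 0.0102, 0.0197, 0.0206, 0.0609 and -0.0833 to 0.0521 under the same settings in that order. Srsf11 ranged from -0.0101, without CHIR replicate 3, to 0.0968, and under BRD0705, where it was reported at -0.13, was at 0.0138 with the feeder covariate. Between inhibitors, Srsf2 was at -0.00316 with DESeq2, -0.00518 with either pseudocount, -0.0484 with GC and length correction, -0.0511 with the block added, -0.00320 with the feeder covariate, and -0.0733 to 0.0672 with a library left out. Srsf3 was at 0.00690 and 0.00691 with GC and length correction without and with the block. Srsf4 was at 0.0132 with library size only. Srsf7 was at 0.00972 with library size only, 0.0340 and 0.0343 with GC and length correction without and with the block, and -0.0465 to 0.000575 with a library left out, the highest without CHIR replicate 1.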

Other observations

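Trp53cor1, the long noncoding RNA also called lincRNA-p21, lies next to Srsf3 and shares 257 exon bases with it on the opposite strand. It was named after its values were seen. It had 23, 18 and 19 counts in control, 27, 12 and 31 with BRD0705, and 4, 1 and 9 with CHIR. Every CHIR library was below every other library. The log2 fold change of CHIR against control was -1.96 ± 0.49 (SE; edgeR's quasi-likelihood test, adjusted p 0.0230), and 4 of 9 fits that left out 1 library passed. BRD0705 against CHIR gave 2.26 ± 0.48 (SE; edgeR adjusted p 0.00686), which passed in 9 of 9 such fits. BRD0705 against control was at 0.30 ± 0.37 (SE; edgeR adjusted p 0.754). Its mean level was 0.432% of that of Srsf3. Since the use of strand in counting is not given, reads from the shared bases cannot be told apart.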
